A study of Mus musculus with 6 samples.

Results

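Collagen IX, the matrilins and 4 further products of cartilage were followed in the posterior eye of mouse embryos at day 15.5, in wild-type (WT) and Oa1-/- animals. The 10 genes were Col9a1, Col9a2 and Col9a3 for collagen IX, Matn1, Matn3 and Matn4 for the matrilins, and Comp, Chad, Epyc and Cnmd. They were matched by gene symbol to 14 probe sets of the array, out of 45101 in all. There were 3 WT and 3 Oa1-/- arrays, each made from the eyes of 6 embryos of 1 dam, with the anterior segments cut away. Oa1, now named Gpr143, encodes a receptor of the melanosome membrane in pigment cells. The labels name no strain, no embryo sex and no extent of the Oa1 deletion. The tissue was whole posterior eye, so fewer cells of a type and less RNA per cell cannot be told apart.

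Collagen IX is a heterotrimer of 3 different chains that sits on the surface of collagen II fibrils, in cartilage and in the vitreous of the eye, and it is also made by the retina and the ciliary margin. Matrilins are adaptor proteins that join collagen fibrils to proteoglycans. The sclera holds a cartilage cup in birds and many fishes but is fibrous in placental mammals, so products of cartilage in a mouse eye need not come from a scleral cartilage.

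Where transcription of the members begins is shown for the genes the values turn on. The RefSeq promoter table (GRCm38.p6) held 11 windows for 8 of the 10 members, all but Col9a3 and Comp, and the 250 bases before the start site are given, 5′ to 3′ on the strand of the gene. Col9a1 (chromosome 1, plus strand, 24177589-24252738) has start sites 17593 bases apart. The upstream one is known from cartilage and the downstream one, which leaves out a long amino-terminal domain, from the eye. They are shown because both Col9a1 probe sets were bright.
Col9a1 upstream start, chr1:24177360-24177609: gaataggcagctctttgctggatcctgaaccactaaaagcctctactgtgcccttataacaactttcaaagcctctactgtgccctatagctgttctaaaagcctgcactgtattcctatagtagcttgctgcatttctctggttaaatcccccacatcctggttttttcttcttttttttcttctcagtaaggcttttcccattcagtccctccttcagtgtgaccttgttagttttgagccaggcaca
Col9a1 downstream start, chr1:24194953-24195202: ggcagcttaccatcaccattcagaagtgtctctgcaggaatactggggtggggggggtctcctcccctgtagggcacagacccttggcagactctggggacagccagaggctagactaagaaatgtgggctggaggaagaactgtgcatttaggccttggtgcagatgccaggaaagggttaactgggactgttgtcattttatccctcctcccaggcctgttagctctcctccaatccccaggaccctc

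Matn4 (chromosome 2, minus strand, 164389393-164405160) is shown because it had the smallest p of the members, and Epyc (chromosome 10, plus strand, 97644068-97681908) because its windows were the only ones among the 11 with letters of the type bound by SOX factors. Capitals mark any of 3 motifs read on either strand. The first was AACAAT. The second was ACAAAG. The third was ACAATG, which can overlap the first. Of the 11 member windows 2 held at least 1 of them, against 29.6% of all 32851 windows of this length in the table. Such a match describes letters, not a bound site.
Matn4 upstream start, chr2:164405161-164405410: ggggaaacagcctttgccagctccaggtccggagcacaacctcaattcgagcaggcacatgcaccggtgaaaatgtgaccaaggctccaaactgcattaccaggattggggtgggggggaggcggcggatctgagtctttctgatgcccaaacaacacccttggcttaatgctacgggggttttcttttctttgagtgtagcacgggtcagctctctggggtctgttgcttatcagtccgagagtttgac
Epyc upstream start, chr10:97643818-97644067: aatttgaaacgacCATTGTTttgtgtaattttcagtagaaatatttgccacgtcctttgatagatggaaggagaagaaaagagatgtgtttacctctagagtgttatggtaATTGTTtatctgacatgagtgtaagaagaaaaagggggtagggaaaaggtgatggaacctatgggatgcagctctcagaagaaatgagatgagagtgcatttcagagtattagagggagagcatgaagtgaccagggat
Epyc downstream start, chr10:97646853-97647102: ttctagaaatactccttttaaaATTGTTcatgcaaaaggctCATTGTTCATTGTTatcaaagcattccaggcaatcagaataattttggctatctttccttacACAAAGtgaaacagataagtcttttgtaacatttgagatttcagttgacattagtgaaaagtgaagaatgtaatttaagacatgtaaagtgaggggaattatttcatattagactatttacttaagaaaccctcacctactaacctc
The upstream Epyc window held 3 matches and the downstream one 6, counting overlapping ones separately. The probe sets were not placed on these transcripts here.

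The arrays differed in brightness, with median signals between 93.6 and 129, and the main fit did not scale them further. The targeted gene followed the labels, Gpr143 having a mean of 251 (SD 5.30) over the WT arrays against 24.5 (SD 16.9) over the Oa1-/- ones. Signals are MAS5 intensities on a linear scale. The highest of 27 bacterial control probe sets gave 22.1 to 39.3 over the arrays, and signals in that range lie near background. WT replicate 3 stood apart, with the Y-linked Eif2s3y at 9.26 against at least 406 on the other arrays. Oa1-/- replicate 1 had the highest 18S ribosomal RNA control signals. Each array is 1 litter, so the spread between arrays includes that between litters.

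Markers of cartilage gave a mixed picture. Of 19 cartilage core genes, 14 exceeded the highest bacterial control on all 6 arrays, among them Col11a2 and Mia, but several that define chondrocytes were dim. Chad, a leucine-rich repeat protein of cartilage that binds chondrocytes, read 2.44 to 14.2 over the 6 arrays and exceeded the highest bacterial control on 0 of them. Matn1, the cartilage matrix protein first described in this family, exceeded it on 1 of 6. Acan, the aggregating proteoglycan aggrecan, averaged 69.2 ± 13.5 for WT against 74.1 ± 19.1 for Oa1-/- (SD, n = 3), above the bacterial controls on all 6 arrays and just above the filter on low signals. Hapln1, the link protein that holds aggrecan to hyaluronan, averaged 41.2 ± 14.3 and 28.9 ± 7.12 and exceeded the bacterial controls on 3 of 6. Genes that cartilage shares with other tissues were bright. Sox9, a transcription factor of chondrocytes and also of retinal progenitors and glia, read 674 ± 91.8 and 682 ± 114. Col2a1, the fibril-forming collagen of cartilage and vitreous, read 905 ± 34.7 and 730 ± 69.9. Of 8 hypertrophic cartilage and bone genes with a named probe set, 4 exceeded the bacterial controls on all 6 arrays. The genes are therefore called by their families here.

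Only part of the group gave enough signal to compare genotypes. A filter on the mean over the 6 arrays, at the 40th percentile of all probe sets (66.0), kept 8 of the 14 member probe sets, for 6 genes. The 6 left out were those of Matn1, Matn3, Comp and Chad and 1 of Col9a3. In limma, 0 of the 8 had an adjusted p below 0.05, against 0% of all 27029 probe sets kept, where 0 passed as well. Gpr143 itself was among those that did not pass, so failing the threshold does not show that a member was unchanged. At an unadjusted p below 0.05 there was 1 of 8, Matn4, which was lower in Oa1-/-. Of all probe sets 4.11% reached this, 2.46% lower and 1.64% higher. The genotypes did not overlap for 2 of the 8, against 10.2% of all probe sets. Of the 8, 6 had a lower and 2 a higher mean log2 signal in Oa1-/-, with a median log2 change of −0.17, beside −0.01 over all probe sets kept. Of all 27029 probe sets kept, 14215 were lower. Without the filter 10 of 14 member probe sets were lower and the median was −0.09, beside 22148 of 45037 probe sets and a median of 0.00394. Leaving out WT replicate 3 gave a median of 0.0214 over the same 8 probe sets, and leaving out Oa1-/- replicate 1 as well gave 0.00457. In those fits a 9th member probe set passed the filter, and over 9 the medians were −0.06 and 0.0218.

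**Figure D1:**
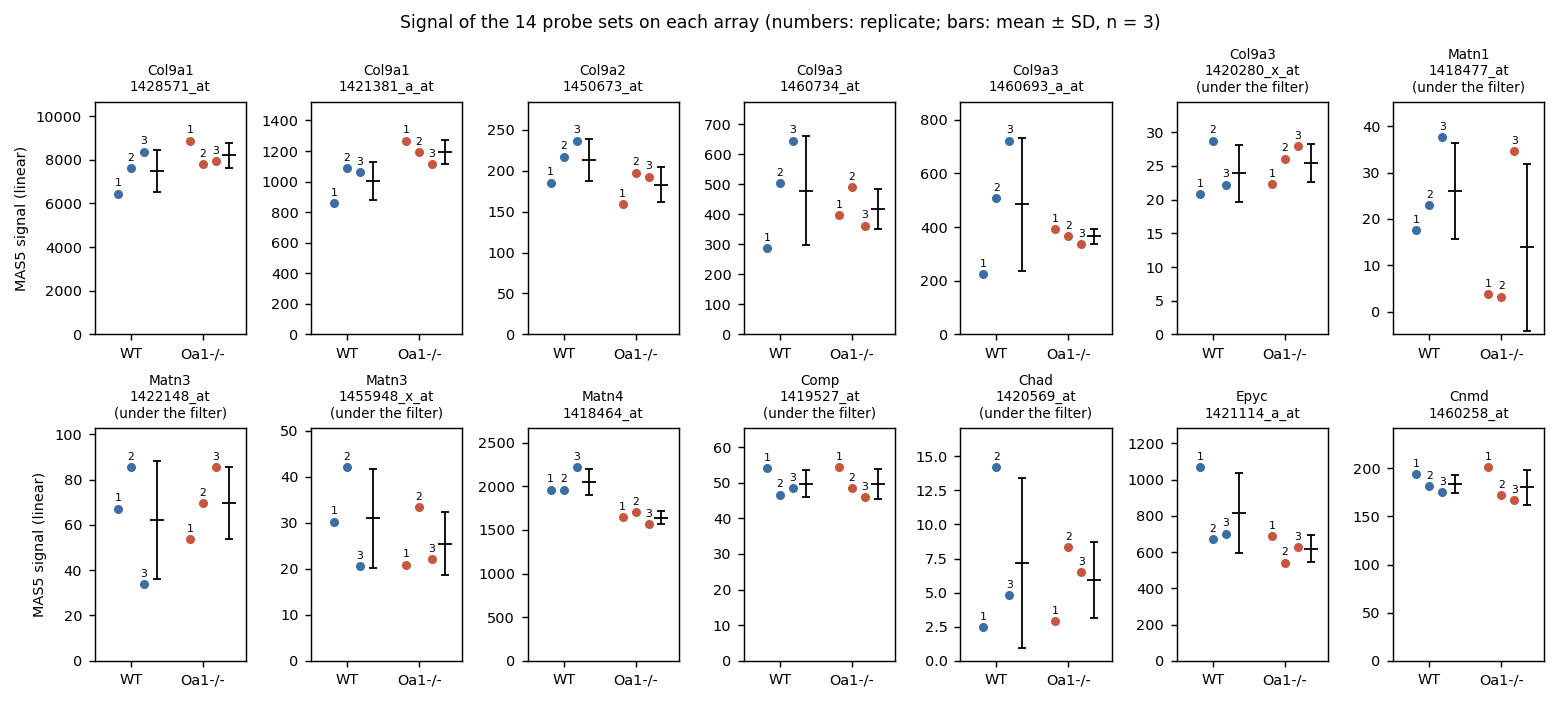
MAS5 signal on a linear scale for each of the 14 probe sets, 1 point per array numbered by replicate, WT in blue and Oa1-/- in red, with mean ± SD (n = 3) as black bars. Matn4 was lower on all 3 Oa1-/- arrays and Col9a1 1421381_a_at higher, while Col9a3 spread from 225 to 722 within WT on 1460693_a_at.

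Collagen IX chains did not share a direction. Col9a1, the chain that carries the long amino-terminal domain when read from its upstream start, had 2 probe sets, both with a higher mean in Oa1-/-. On 1421381_a_at the WT replicates 1 to 3 gave 858, 1086 and 1064, and the Oa1-/- replicates 1 to 3 gave 1268, 1195 and 1113. All 3 Oa1-/- arrays lay above all 3 WT arrays, as was the case for 4.92% of all probe sets in that direction. The log2 change was 0.25 (SE 0.12, unadjusted p = 0.0598, adjusted p = 0.985 in limma), or 1.19-fold from log2(signal + 16). An exact two-sided permutation test gave p = 0.1, and no smaller value is possible with 3 arrays per genotype.

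The brighter Col9a1 probe set, 1428571_at, gave 6453, 7614 and 8367 for WT against 8871, 7809 and 7925 for Oa1-/-. Here the groups overlapped, since WT replicate 3 lay above Oa1-/- replicates 2 and 3. The log2 change was 0.14 (SE 0.11, 95% interval −0.10 to 0.38, adjusted p = 0.985 in limma). WT replicate 1 was the lowest array on both probe sets, and without it the changes were 0.04 on 1428571_at and 0.14 on 1421381_a_at. The 18S ribosomal RNA control probe set nearest the 3′ end gave 1476, 1988 and 1988 for WT against 6348, 2618 and 2608 for Oa1-/-. It put the 6 arrays in the same order as Col9a1 1421381_a_at, an order that 53 of the 27029 probe sets (0.196%) held. On this 3′ probe set the order rests on near ties, between WT replicates 2 and 3 and between Oa1-/- replicates 2 and 3. The 5′ 18S probe set held the same order, with 2227, 4049 and 2237 for WT against 11826, 5201 and 4828 for Oa1-/-. Its near tie was between WT replicates 1 and 3. On the 3′ and the 5′ probe set the genotypes did not overlap. The 18S probe set in the middle of the transcript, with 1371, 2397 and 1731 for WT against 6576, 2826 and 1968 for Oa1-/-, overlapped between genotypes. The brighter Col9a1 probe set, 1428571_at, was ordered as the 3′ and the 5′ 18S probe set in 11 of 15 pairs of arrays. The summed signal of the hypertrophic cartilage and bone genes was ordered opposite to 1421381_a_at in 15 of 15. These array orders were among 72 combinations of a member probe set and a list or control, looked at after the values were seen. The part of the 18S signal in the Col9a1 values was not tested, and without Oa1-/- replicate 1 the change on 1421381_a_at was 0.21.

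Col9a2 (chromosome 4, 121039566-121055325) had 1 probe set, with 185, 217 and 236 for WT against 159, 198 and 193 for Oa1-/-. The groups overlapped. The log2 change was −0.20 (SE 0.17, 95% interval −0.59 to 0.18, adjusted p = 0.985 in limma), and it ran from −0.29 without WT replicate 1 to −0.11 without Oa1-/- replicate 1.

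Col9a3 (chromosome 2, 180598102-180622192) varied most among the chains, and the variation lay within WT. Its probe set 1460693_a_at gave 225, 507 and 722 for WT against 393, 366 and 336 for Oa1-/-, a 3.20-fold range from the lowest to the highest array. The other bright probe set, 1460734_at, gave 287, 504 and 645 for WT against 397, 491 and 363 for Oa1-/-. WT replicate 1 was lowest and WT replicate 3 highest on both, and the Oa1-/- arrays lay between them. The log2 changes were −0.25 (SE 0.35) and −0.13 (SE 0.27), with limma adjusted p of 0.985 and 0.988. Without WT replicate 3 they turned to 0.10 and 0.11, and without WT replicate 1 they were −0.71 and −0.45, so no direction can be given. A dim Col9a3 probe set, 1420280_x_at, read 20.8 to 28.7 and exceeded the bacterial controls on 1 of 6 arrays.

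The summed signals of tendon and of scleral stroma genes put the arrays in the order of Col9a3, though many single genes of these lists did not. The summed signal of 8 tendon and ligament genes was 6838, 12338 and 13158 for WT against 10513, 9925 and 8903 for Oa1-/-. That of 11 scleral fibroblast and periocular mesenchyme genes was 84067, 101183 and 104515 for WT against 96132, 91226 and 89228 for Oa1-/-. Both sums ordered the arrays as Col9a3 1460693_a_at did, in 15 of 15 pairs of arrays, and as 1460734_at did in 14 of 15. Of all probe sets kept, 93 (0.344%) held this order. Among single genes Tnmd, the tendon membrane protein tenomodulin, Fmod, the fibril-binding proteoglycan fibromodulin, and Kera, keratocan of the corneal and scleral stroma, shared it in full, as did Col3a1 and Dcn of the scleral list. The transcription factors matched less: Scx and Mkx of tendon in 5 of 15 pairs, Egr1 in 6, and Prrx1 and Foxc2 of mesenchyme in 4, Foxc1 in 7 and Twist1 in 8. A match was not limited to these lists. Of the ciliary margin and vitreous list, Optc matched in 13 of 15 pairs and the other genes in 2 to 10. Kera, itself the brightest gene of the tendon sum, gave 3180, 5999 and 6575 for WT against 5184, 5049 and 4561 for Oa1-/-. The sums add linear signals, so bright genes weigh most in them. In the scleral sum the brightest was Col1a2, at a WT mean of 23623. These array orders were looked at after the values were seen, among 72 combinations of a member probe set and a list or control. The part of stromal cells in the Col9a3 signal was not tested.

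**Figure D2:**
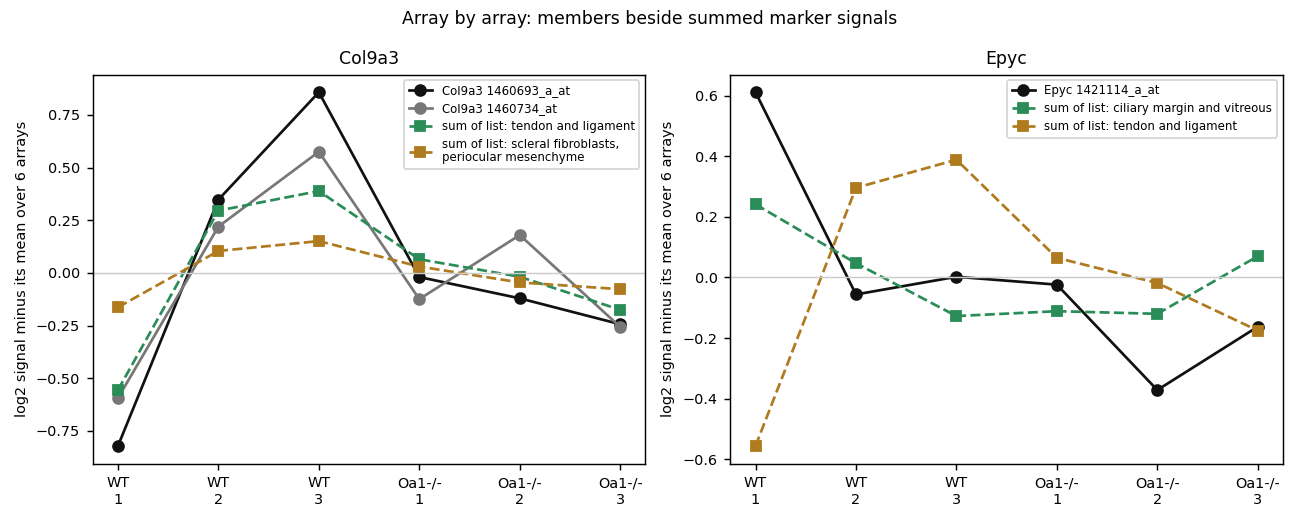
Log2 signal minus its mean over the 6 arrays, for Col9a3 (left, 2 probe sets) and Epyc (right), beside the log2 of the summed signal of marker lists (dashed). Col9a3 and the tendon and ligament sum are both lowest on WT replicate 1 and highest on WT replicate 3, while Epyc is highest on WT replicate 1.

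Differences between members were compared directly, as the per-array difference of log2 signals of the brightest probe set of each of 6 genes, in 15 pairs chosen after the values were seen. The change of Col9a1 exceeded that of Col9a2 by 0.34, that of Matn4 by 0.45 and that of Epyc by 0.50 on the log2 scale. For Matn4 minus Cnmd the difference was −0.29. In each of these the genotypes were separate, at an exact two-sided permutation p of 0.1, with a Benjamini-Hochberg value of 0.375 over the 15 pairs. Col9a1 and Col9a3 differed by 0.27 (exact permutation p = 0.3), within the spread between arrays. None of the 15 pairs passed, and none could have, given the smallest p of this design.

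Among the matrilins followed here (Matn1, Matn3 and Matn4), Matn4 alone passed the filter on low signals, and it was lower in Oa1-/-. Matn4 is the family member with the widest distribution, found in brain and other soft tissues as well as in cartilage. WT replicates 1 to 3 gave 1962, 1964 and 2222, and Oa1-/- replicates 1 to 3 gave 1651, 1709 and 1569. Each Oa1-/- array lay below each WT array, as for 5.31% of all probe sets in that direction. The means were 2049 ± 150 and 1643 ± 70.4 (SD, n = 3), with a log2 change of −0.31 (SE 0.09, 95% interval −0.51 to −0.12).

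That difference did not pass over all probe sets. The unadjusted p was 0.00628 and the adjusted p 0.985 in limma, and an exact two-sided permutation test gave 0.1. The adjusted p ran from 0.272 to 1.00 over the alternatives. The change kept its sign with each array left out, from −0.34 without WT replicate 1 to −0.26 without WT replicate 3. With median centring it was −0.28 and the unadjusted p was 0.139. The 3′ and 5′ 18S ribosomal RNA controls given above were higher on each Oa1-/- array than on each WT array, while the middle one overlapped. Their part in the Matn4 values was not tested.

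Matn1 and Matn3, the matrilins of skeletal cartilage, were dim. Matn1 (chromosome 4, 130944385-130955476) gave 17.7, 22.9 and 37.7 for WT against 3.79, 3.23 and 34.7 for Oa1-/-, so that 2 Oa1-/- arrays gave almost nothing and the last was close to the highest WT array. Its log2 change without the filter was −0.62 (SE 0.40, adjusted p = 0.993 in limma), all of it near background. Matn3 (chromosome 12, 8947929-8972028), in which mutations cause multiple epiphyseal dysplasia in people, gave 67.2, 85.4 and 33.8 for WT against 53.8, 69.6 and 85.6 for Oa1-/- on 1422148_at, above the bacterial controls on all 6 arrays. Its other probe set, 1455948_x_at, read 20.5 to 42.1 and had a mean that was lower in Oa1-/- where that of the first was higher.

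Of the other products of cartilage, 2 genes passed the filter on low signals. Epyc, the small leucine-rich proteoglycan epiphycan, gave 1069, 673 and 701 for WT against 689, 541 and 625 for Oa1-/-. WT replicate 1 was far above the rest, and Oa1-/- replicate 1 lay above WT replicate 2, so the groups overlapped. The log2 change was −0.36 (SE 0.18, 95% interval −0.78 to 0.06), the most negative of the 8 member probe sets kept, with an adjusted p of 0.985 in limma and an exact permutation p of 0.2. Without WT replicate 1 it was −0.15, and without WT replicate 3 and Oa1-/- replicate 1 together it was −0.53, so its size depended on which arrays entered. The ciliary margin and vitreous list was highest on WT replicate 1 as well, with sums of 26442, 23110 and 20482 for WT against 20710, 20587 and 23484 for Oa1-/-, but it ordered only 8 of 15 pairs of arrays as Epyc did. The hypertrophic cartilage and bone list, also highest on WT replicate 1, did so in 12 of 15. Collagen and matrix assembly did in 11 of 15, and the remaining lists in 7 to 9. The part of these tissues in the Epyc values was not tested.

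Cnmd (chromosome 14, 79637682-79662194), chondromodulin, a membrane protein that inhibits blood vessel growth in cartilage, had the narrowest range over arrays of the kept probe sets, from 167 to 201. It gave 194, 181 and 176 for WT against 201, 172 and 167 for Oa1-/-, with a log2 change of −0.03 (SE 0.16, 95% interval −0.39 to 0.33, adjusted p = 0.996 in limma). The sign turned with 1 array left out. Comp (chromosome 8, 70373548-70382066), a pentameric thrombospondin of cartilage and tendon, gave 54.1, 46.6 and 48.5 for WT against 54.4, 48.4 and 46.0 for Oa1-/-. It lay under the filter but above the bacterial controls on all 6 arrays, and its log2 change without the filter was −0.00319 (SE 0.23). Chad (chromosome 11, 94565047-94569127) had values at background in both genotypes, as given above.

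**Figure D3:**
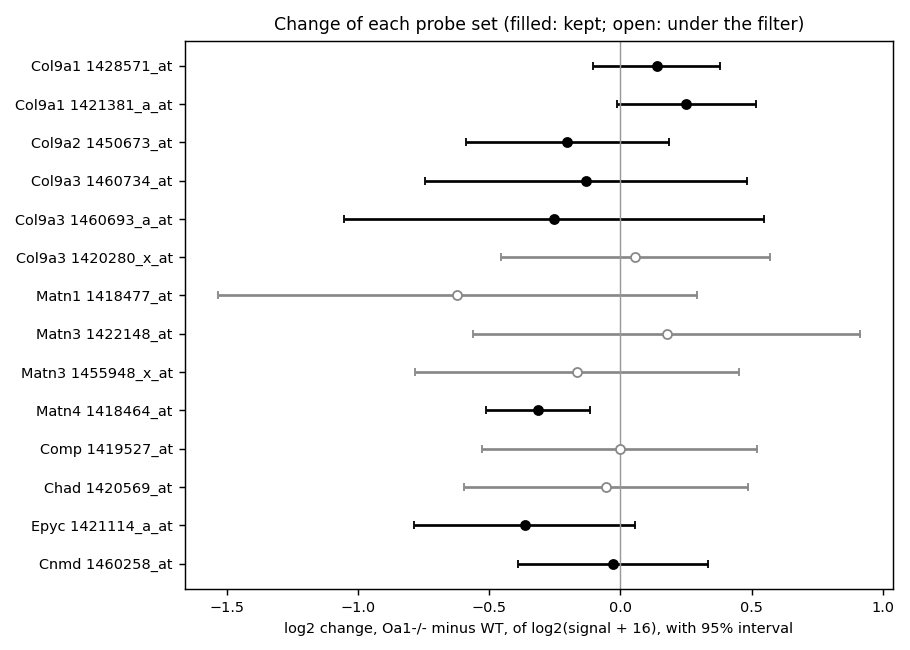
Log2 change (Oa1-/- minus WT, on the log2(signal + 16) scale) of each of the 14 probe sets with its 95% interval from limma, filled for the 8 kept and open for the 6 under the filter, which come from the fit without it. Only the interval of Matn4 (−0.51 to −0.12) leaves out 0, before adjustment over all probe sets.

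Of the 16 highest and lowest values of the 8 kept probe sets, 5 fell on WT replicate 1, 4 on WT replicate 3 and 4 on Oa1-/- replicate 1. WT replicate 1 was lowest on the 2 Col9a1 and the 2 bright Col9a3 probe sets and highest for Epyc. WT replicate 3 was highest for Col9a2, Matn4 and the 2 bright Col9a3 probe sets. Oa1-/- replicate 1 was highest for both Col9a1 probe sets and Cnmd and lowest for Col9a2. With WT replicate 1 left out, both Col9a3 probe sets had an unadjusted p below 0.05 beside Matn4, and with WT replicate 2 left out, Epyc and Col9a1 1421381_a_at did. Over all probe sets 3.95% and 3.76% reached this in the same fits. In each of these fits 0 members passed after adjustment in limma.

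**Figure D4:**
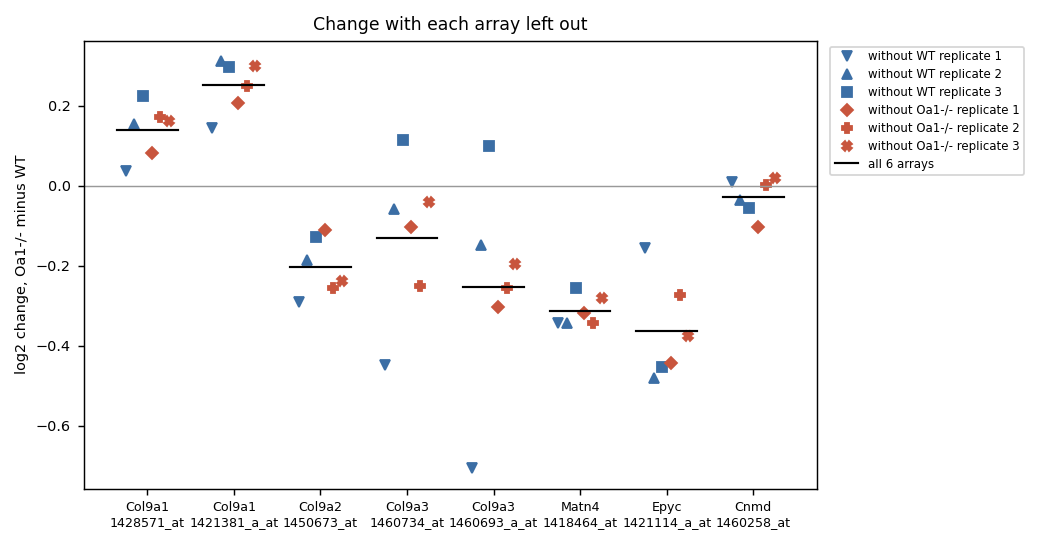
Log2 change (Oa1-/- minus WT) of the 8 member probe sets kept, with all 6 arrays (black line) and with each array left out (blue, a WT array; red, an Oa1-/- array). Matn4 stays between −0.34 and −0.26, while Col9a3 1460693_a_at runs from −0.71 to 0.10.

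The other cartilage genes were even in direction. Of 19 listed genes, 13 passed the filter on their brightest probe set, 7 with a higher and 6 with a lower mean in Oa1-/-, and 0 passed the test. The median log2 change was 0.01, beside −0.01 over all probe sets. Col2a1 was the only one with an unadjusted p below 0.05. It gave 906, 870 and 939 for WT against 674, 707 and 808 for Oa1-/-, with no overlap, a log2 change of −0.31 (SE 0.10, unadjusted p = 0.0177, adjusted p = 0.985 in limma). Matn2, the matrilin of non-skeletal tissues, also had all Oa1-/- arrays below all WT arrays, at 235 to 294 for WT against 204 to 232 for Oa1-/-. Col11a1, which nucleates collagen II fibrils, read 1746 ± 479 and 1578 ± 91.2, and Sox9 and Acan had log2 changes of 0.02 and 0.07.

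Lists for the tissues around the retina were read in the same fit, and 0 genes in them passed. Of 8 tendon and ligament genes, 6 were lower (median −0.11), and of 11 scleral fibroblast and mesenchyme genes 9 were lower (median −0.11). Over all probe sets kept, 14215 of 27029 were lower. With 1 array left out the median of the tendon list ran from −0.36 (without WT replicate 1) to 0.03 (without WT replicate 2), with −0.00940 once WT replicate 3 and −0.00170 once Oa1-/- replicate 3 was left out. That of the scleral list ran from −0.14 (without WT replicate 1) to −0.03 (without WT replicate 3). Twist1, a transcription factor of cranial mesenchyme, had a log2 change of −0.42 (unadjusted p = 0.0265), and Col1a1, the main collagen of the sclera, one of −0.27. Another Col1a1 probe set averaged 5810 for WT against 5683 for Oa1-/-, a log2 change of −0.00941. Of 10 enzymes and chaperones of collagen and matrix assembly, 9 were lower (median −0.09), with 0 at an unadjusted p below 0.05. In the list of 4 kept hypertrophic cartilage and bone genes, Pth1r, the parathyroid hormone receptor, had a log2 change of −0.30 (unadjusted p = 0.0339).

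The ciliary margin and the retina, which make collagen IX too, were even in direction. Of 10 ciliary margin and vitreous genes, 5 were higher and 5 lower (median −0.04). Otx1, a homeobox factor of the margin, read 485 ± 102 and 331 ± 73.1 (SD, n = 3; log2 change −0.53, unadjusted p = 0.0312 in limma), and the cyclin Ccnd2 had a log2 change of −0.23 (unadjusted p = 0.0236). The other Ccnd2 probe sets ran from −0.40 to 0.05, with −0.08 for the next brightest. Optc, the vitreous proteoglycan opticin, read 134 ± 25.4 and 140 ± 10.6. Of 9 retinal progenitor genes, 5 were higher and 4 lower (median 0.01). Pax6, a master regulator of the eye field, read 10043 ± 18.6 and 11195 ± 520 (log2 change 0.16, unadjusted p = 0.0477), above all WT arrays on each Oa1-/- array, as Col9a1 was on 1421381_a_at. Its next brightest probe set had a log2 change of 0.14 (unadjusted p = 0.393 in limma), and the remaining, dimmer Pax6 probe sets ran from −0.08 to 0.06. The adjusted p was 0.985 in limma for Twist1, Pth1r, Otx1, Ccnd2 and Pax6.

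**Figure D5:**
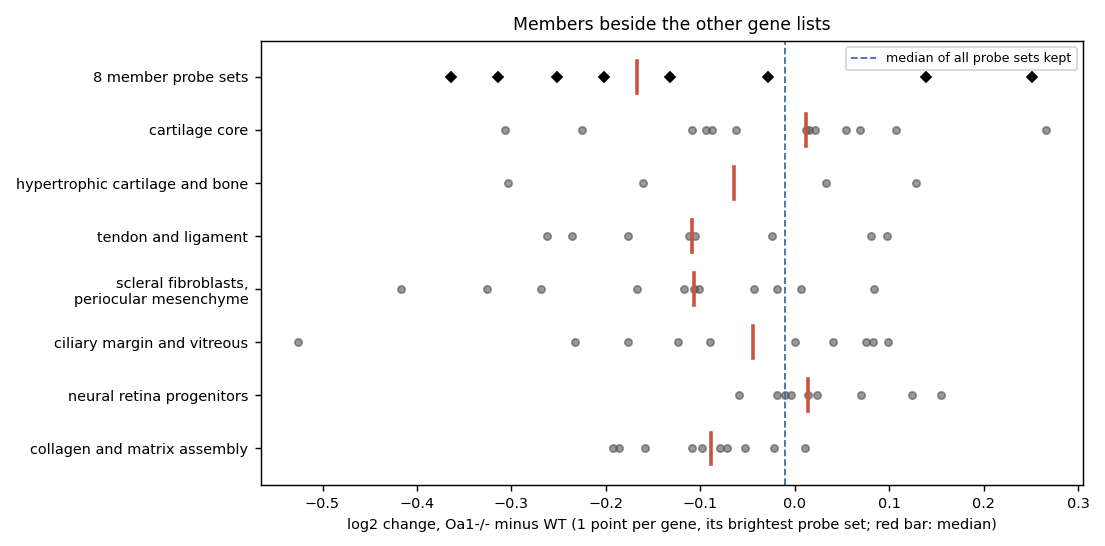
Log2 change (Oa1-/- minus WT) of the 8 member probe sets and of each gene of the 7 other lists that passed the filter (1 point per gene, its brightest probe set), with the median of each in red and the median of all probe sets kept as a dashed line at −0.01. The member probe sets reach from −0.36 to 0.25.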

How the data were processed

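MAS5 signal intensities, 1 per probe set and array, were deposited by the authors on a linear scale, with MAS5 named per the submitters' processing notes and its version not given in the sources used here. Gene symbols came from the annotation of the array platform, and listed genes with no probe set of a single symbol were not analysed here. Locations and promoters came from RefSeq (GRCm38.p6).

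Values were analysed as log2(signal + 16) with no further scaling. Control probe sets (64) were left out, and 27029 probe sets with a mean above the 40th percentile were kept. A linear model, Oa1-/- minus WT with no covariate, was fitted with limma 3.58.1 (eBayes with trend) under R 4.3.3, two-sided, with Benjamini-Hochberg adjustment over all probe sets kept and a threshold of 0.05. The code was tested on simulated data. Fold changes on this scale understate those of dim probe sets, and precision is limited by 3 arrays per genotype. The members, the lists and the rule for naming genes were chosen with earlier results of these data known. The rule named all member probe sets, list genes with an unadjusted p below 0.05 (at most 4 a list), 7 fixed genes, and the 3 genes nearest in pattern to a member of each family. The comparisons of array order and of member pairs, and Kera, Tnmd, Fmod, Scx and Matn2, were chosen after their values were seen. Alternatives were other pseudocounts (1 and 64), median centring or quantile normalization, a filter at the 70th percentile or none, no trend, array weights, a block for the replicate number, the brightest probe set per gene, probe sets open to cross-hybridisation left out, and arrays left out.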

Additional observations from a re-analysis of the deposited data

How the results depend on the processing

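Over all probe sets 0 passed the threshold except with median centring (2, Gpr143 and Kantr) and with array weights (2, Slc25a29 and Kantr). Member probe sets passed in 0 cases under each alternative run. The median change of the members, −0.17, moved to 0.0218 without WT replicate 3 and Oa1-/- replicate 1 together, and ran from −0.25 to −0.06 with 1 array left out. A 9th member probe set passed the filter in the fits without WT replicate 3, without Oa1-/- replicate 1 and without both. Over the same 8 probe sets, an alternative chosen after seeing the data, the median was 0.0214, −0.11 and 0.00457 in these fits. The sign turned for Cnmd with median centring (0.00303) and with 1 array left out (range −0.10 to 0.0193). It turned for Col9a3 without WT replicate 3 and Oa1-/- replicate 1 together (1460734_at 0.14, 1460693_a_at 0.0473) and with 1 array left out (ranges −0.45 to 0.11 and −0.71 to 0.10). Those turns come from the arrays left out, and for centring the cause was not tested. Both Col9a1 probe sets, Col9a2, Matn4 and Epyc kept their sign under each alternative run, except that Col9a2 was not tested with the filter at the 70th percentile, nor was Cnmd.

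Whether the replicate numbers pair the arrays could not be decided. Deviations from the genotype mean correlated at −0.29, 0.16 and −0.23 (Pearson, across probe sets) for replicates 1, 2 and 3. Among the WT arrays only replicate 2 correlated best with the Oa1-/- array of its own number. Deviations of 3 arrays from their own mean cancel out, so correlations of mixed sign are forced and cannot show whether arrays were paired. In the fit with the replicate block 0 probe sets passed over all, 0 members passed, the median stayed at −0.17, and the count of probe sets at an unadjusted p below 0.05 went from 1110 to 885. Signal near background limits what Matn1, Chad, Matn3 1455948_x_at and the dim Col9a3 probe set can show.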

Other observations

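For the brightest member of each family, the genes nearest in pattern over the 6 arrays were found by the root mean square difference of log2(signal + 16) after centring each on its mean. This measure favours genes of a like size of variation and says nothing of shared function. Nearest to Col9a1 1428571_at were Cpe, a carboxypeptidase of secretory granules, at a difference of 0.02, Sorcs1 at 0.03 and Higd2a, a mitochondrial protein, at 0.03, where the median over all probe sets was 0.21. Nearest to Matn4 were Sp3, a zinc finger transcription factor (0.02), Fbln1, the matrix protein fibulin 1 (0.04), and Sidt2 (0.04), with a median of 0.24. Fbln1 read 2410 in WT and 2000 in Oa1-/-, and Sp3 2879 and 2342. Nearest to Epyc were Meox2, a homeobox factor of mesenchyme (0.06), Dusp9 (0.07) and a probe set of Vcan, the proteoglycan versican (0.08), with a median of 0.34.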
